A study of Mus musculus with 18 samples.

Results

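Chromatin accessibility at promoters was compared between fear-conditioned and control mice in somatostatin-positive (SOM+) nuclei of the prefrontal cortex. The members were 4 of the 18 ATAC-seq libraries of the series, chosen by their labelled region, cell gate and treatment: 2 libraries from fear-conditioned mice and 2 from control mice. The mice were C57BL/6J, 2 to 3 months of age and labelled wild type. Their somatostatin cells carried the nuclear label SOMH2B-GFP, in both treatments alike, and nuclei were sorted on GFP, 50000 per library, so that a library held GFP-positive nuclei of microdissected prefrontal cortex. Library 1 of each treatment was labelled male and library 2 female, so library number and labelled sex cannot be told apart. The protocol speaks of technical replicates in its account of the sort, so the replicates may not be separate mice, and p-values then measure only the spread between these libraries. The conditioning schedule and its timing before dissection were not stated in the sources at hand. The 4 SOM+ libraries of the central amygdala (CeA, 2 fear-conditioned and 2 control, same strain, age and sort) entered the main fit too. They therefore contributed to the filter, scaling, p-values, standard errors and intervals of the cortex comparison. Their own fear effect was also compared with that in cortex. The 5 bulk libraries of the cortex served to check the sort. Of these, 3 had an Erbb4 knockout in SOM+ cells and 2 were wild type, and nuclei were sorted on a DNA stain.

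ATAC-seq uses the Tn5 transposase, which cuts DNA that is not covered by nucleosomes and attaches sequencing adapters to it, so a promoter that is open yields more reads. In Pavlovian fear conditioning an animal learns that a cue predicts a shock, and prefrontal somatostatin interneurons, which inhibit the dendrites of pyramidal cells, are known to take part in such learning. Neuronal activity induces immediate early genes within minutes through calcium and cAMP signalling and the transcription factor CREB, which binds the cAMP response element (CRE), and some of these genes keep open promoters before they are induced.

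The promoters that the comparisons below turn on are shown first, as the 250 bases before the annotated transcription start, 5′ to 3′ on the strand of the gene, from RefSeq with build GRCm38.p6. Fos and Npas4 stand for the immediate early genes, Sst for the gene that defines the sorted cells, and Alad and Hdhd3 for the promoters with the smallest p-values between fear and control. Capitals mark the CRE core TGACG, shown as its reverse complement where it lies on the other strand. They also mark the palindromic full form TGACGTCA, in which cores of both strands overlap, and the E-box CACGTG. All were searched on both strands.
Fos promoter, chr12:85473640-85473889, plus strand: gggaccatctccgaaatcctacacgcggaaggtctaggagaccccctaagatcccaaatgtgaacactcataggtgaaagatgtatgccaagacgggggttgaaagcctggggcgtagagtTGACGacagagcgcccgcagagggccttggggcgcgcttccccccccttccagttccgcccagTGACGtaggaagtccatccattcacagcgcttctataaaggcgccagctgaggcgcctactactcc
Npas4 promoter, chr19:4989972-4990221, minus strand: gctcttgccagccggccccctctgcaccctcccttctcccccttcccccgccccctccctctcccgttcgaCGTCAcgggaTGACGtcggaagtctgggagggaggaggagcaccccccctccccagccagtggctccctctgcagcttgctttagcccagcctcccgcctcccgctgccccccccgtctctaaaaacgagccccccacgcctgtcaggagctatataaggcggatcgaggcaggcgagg
Sst promoter, chr16:23890845-23891094, minus strand: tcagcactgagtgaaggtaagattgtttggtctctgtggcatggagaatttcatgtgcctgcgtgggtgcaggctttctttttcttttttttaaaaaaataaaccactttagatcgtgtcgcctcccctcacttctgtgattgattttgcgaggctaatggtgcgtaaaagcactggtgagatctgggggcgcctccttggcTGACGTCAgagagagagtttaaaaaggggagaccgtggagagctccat
Alad promoter, chr4:62520064-62520313, minus strand: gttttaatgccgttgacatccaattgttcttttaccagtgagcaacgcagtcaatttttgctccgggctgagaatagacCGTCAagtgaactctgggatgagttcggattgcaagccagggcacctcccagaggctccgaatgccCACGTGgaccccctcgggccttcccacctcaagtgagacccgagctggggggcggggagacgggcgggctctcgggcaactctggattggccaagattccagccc
Hdhd3 promoter, chr4:62502201-62502450, minus strand: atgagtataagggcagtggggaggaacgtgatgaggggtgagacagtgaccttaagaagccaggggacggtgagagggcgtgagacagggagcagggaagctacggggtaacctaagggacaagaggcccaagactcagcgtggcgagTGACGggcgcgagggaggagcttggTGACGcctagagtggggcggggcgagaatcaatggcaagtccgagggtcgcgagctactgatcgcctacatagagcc

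Fos, Npas4 and Hdhd3 each held 2 CRE cores in this window, Alad held 1 core and 1 E-box, and Sst held the full CRE. Over 32536 RefSeq promoters of the same length, 17.9% held TGACG, 1.56% held TGACGTCA and 6.04% held CACGTG. A match describes the letters and is not a measured binding site.

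Promoters of GABAergic neuron genes stood higher in the sorted nuclei at 15 of 19 listed genes, and those of somatostatin interneuron genes at 15 of 31. Lists that do not mark these cells varied as widely. Higher means were found at 48 of 63 chromatin modifiers and 17 of 23 circadian clock genes, and at 10 of 27 late activity-induced genes. The share over all promoters is not given here, so these counts alone do not mark the sorted cells. In cortex SOM+ against cortex bulk nuclei, levels scaled over all 18 libraries were 93.6 ± 6.54 against 10.3 ± 1.58 CPM (counts per 1e+06 counts of a library, after scaling) at Cort, which encodes the neuropeptide cortistatin of somatostatin cells (SD, n = 4 and n = 5). Gad1, a GABA-synthesising enzyme, stood at 91.4 ± 2.52 against 20.5 ± 4.07 CPM, and Lhx6, a transcription factor of interneurons from the medial ganglionic eminence, at 96.8 ± 5.41 against 21.3 ± 4.95 CPM. Sst differed little, at 16.8 ± 1.83 in SOM+ against 12.6 ± 4.10 CPM in bulk nuclei, with overlapping ranges. Neurod6, a transcription factor of cortical excitatory neurons, stood at 10.9 ± 4.04 against 81.0 ± 13.8 CPM. Other markers separated the nuclei less clearly. The glutamatergic marker Slc17a7 had overlapping ranges, 8.61 to 12.23 CPM in SOM+ against 9.30 to 19.02 CPM in bulk nuclei. The vascular marker Cldn5 stood at 10.6 ± 1.83 against 11.2 ± 2.94 CPM. Of markers of other interneurons, Pvalb was higher in SOM+ nuclei, at 24.5 ± 2.13 against 11.1 ± 3.91 CPM, and Vip lower, at 3.80 ± 0.97 against 8.48 ± 1.87 CPM. Higher means in SOM+ nuclei were found at 6 of 30 glutamatergic neuron genes, 7 of 20 astrocyte, 8 of 25 oligodendrocyte lineage, 6 of 22 microglia and 8 of 29 vascular genes, and no gene of these lists was at 0. Among those lower in SOM+ nuclei were the astrocyte connexin Gja1 at 3.07 ± 0.90 against 15.4 ± 3.78 CPM, the myelin gene Mog at 2.97 ± 0.79 against 15.2 ± 1.79 CPM and the leukocyte gene Ptprc at 2.54 ± 1.20 against 13.8 ± 2.50 CPM. These values describe the sort and were not tested. The ratio of open to closed promoters, defined in the next paragraph, was 55.3 to 74.0 in cortex SOM+ libraries. In cortex bulk libraries it was 9.57 to 14.2, and its part in the marker levels was not tested.

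The libraries held 14668694 and 9452310 promoter counts in fear-conditioned, and 10716940 and 10157955 in control mice, so a count of 0 allows a level of up to 0.205 to 0.317 CPM before scaling. This limit, at 3 counts, covers counting error only. How far open promoters stood out from closed ones was measured per library as a ratio of medians, with genes of cytosolic ribosomal proteins as the open and olfactory receptors as the closed set. This enrichment was 55.3 and 60.8 in fear and 55.8 and 74.0 in control libraries. The means were 58.1 ± 3.90 and 64.9 ± 12.8 (SD, n = 2 each), and the exact two-sided permutation p was 0.667, where the smallest that 2 against 2 libraries allow is 0.333. Across 25156 promoters with counts in either library, log2 levels of fear 1 and control 1 correlated at r = 0.985, of fear 2 and control 2 at 0.984 over 25150, of fear 1 and fear 2 at 0.983 and of control 1 and control 2 at 0.981 over 25155. Promoters share their libraries here and are not independent replicates. Every pair differed by more than counting error, with chi-square values per degree of freedom of 2.53 for fear 2 with control 2, up to 8.30 for fear 1 with control 2.

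No promoter passed the test for fear conditioning. Of 25157 promoters tested by the edgeR quasi-likelihood test, 0 had a Benjamini-Hochberg adjusted p under 0.05 (percent called, 0), and the smallest adjusted p was 1.00. At an unadjusted p under 0.05 there were 288 promoters, 1.14% of those tested, fewer than evenly spread p-values would give. DESeq2 also called 0, with 127 promoters at an unadjusted p under 0.05, and limma after cyclic loess scaling called 0, with 278. These fits have no term for library number, so differences by number enter their standard errors and the intervals below. With number as a term in the 4 cortex libraries alone, 1532 of 24323 promoters (6.30%) had an unadjusted p under 0.05 by edgeR. Of these 1 was called. Without that term the 4 cortex libraries gave 409 at this threshold, with 0 called. The same term in the 8 SOM+ libraries of the main fit gave 359, with 0 called. Both fear libraries lay above both controls at 3409 promoters (13.6%), below both at 3274 (13%), and the groups did not overlap at 6683 (26.6%). Those shares are the background for every count of non-overlapping promoters below.

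The precision of the comparison depended on the level of the promoter. At 18746 promoters, 74.5% of those tested, the 95% interval of the difference lay wholly within 2-fold in either direction, that is within 1 on the log2 scale. Among the 5120 promoters with a mean level of 50 to 100 CPM, 95% of differences lay between -0.22 and 0.21 log2, the median standard error (SE) was 0.20, and every interval lay within 2-fold. Among the 5534 promoters at 1 to 5 CPM the corresponding limits were -0.82 and 1.07 log2, with a median SE of 0.54, and 12.8% of intervals lay within 2-fold. A difference of more than 2-fold was estimated at 455 promoters (1.81%), 312 of them higher and 143 lower in fear libraries. Their median level was 1.07 CPM, and 0 of the 18705 promoters with a mean of at least 5 CPM were among them. At promoters below 5 CPM the interval therefore often did not exclude a difference of that size. An interval within 2-fold does not mean that a 2-fold difference would have been called. Calls rest on p-values adjusted over all 25157 promoters, and detection at any level is not shown by these intervals.

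**Figure D1:**
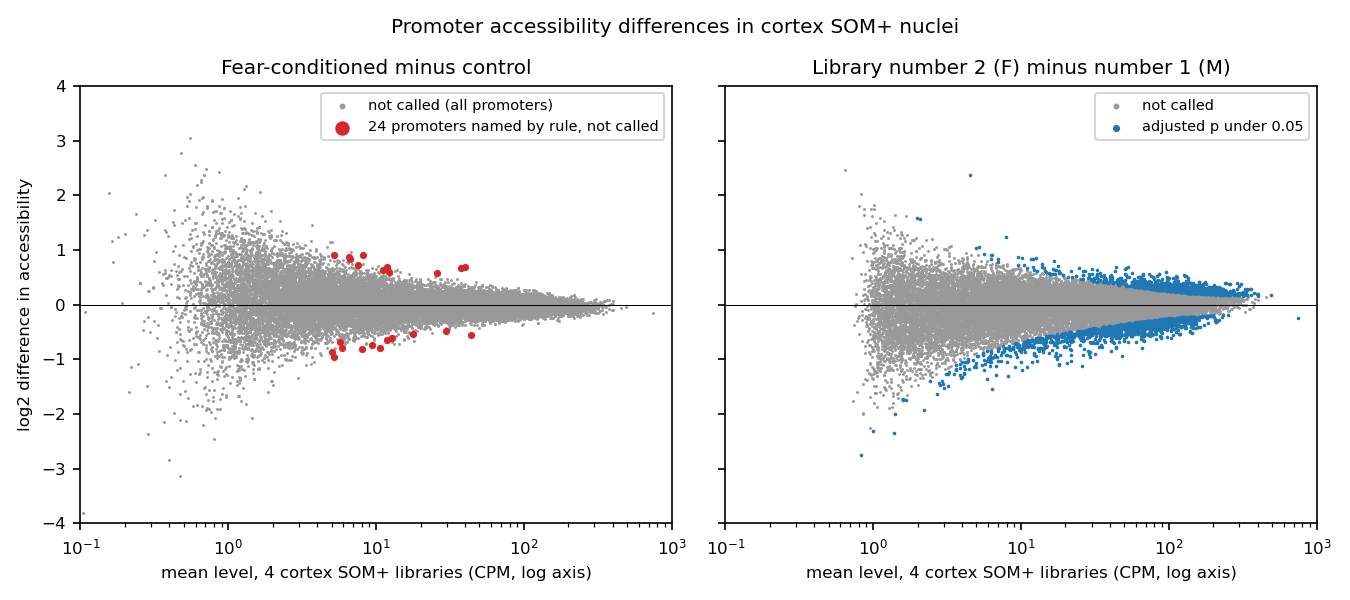
Each point is a promoter, with its mean level over the 4 cortex SOM+ libraries in CPM on a log axis and its log2 difference on the vertical axis: fear-conditioned minus control on the left, library number 2 minus number 1 on the right. The left panel has 0 called promoters, with the 24 promoters named by rule in red; the right panel has 2122 called promoters in blue, and 2 promoters on the left and 4 Y-linked promoters on the right lie beyond the vertical axis.

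The promoters closest to the threshold were those of Alad and Hdhd3, neighbours on chromosome 4 that were more accessible in both fear libraries. Alad encodes the enzyme that joins aminolevulinic acid molecules into porphobilinogen in heme synthesis, and Hdhd3 encodes a protein of the haloacid dehalogenase-like hydrolase family. Alad (mm9, chr4:62179944-62182097) had 56.0 and 41.7 CPM in fear libraries 1 and 2, against 28.3 and 32.7 CPM in control libraries 1 and 2. Both fear libraries lay above both controls, and the difference was larger between the libraries numbered 1 (0.97 log2) than between those numbered 2 (0.35 log2). The fitted difference was 0.69 ± 0.20 log2 (SE, 95% interval 0.29 to 1.09), with an unadjusted p of 0.000794 and an adjusted p of 1.00. Hdhd3 (mm9, chr4:62162235-62164234) had 55.2 and 36.9 CPM in fear, against 30.3 and 27.8 CPM in control libraries, a difference of 0.67 ± 0.20 log2 (unadjusted p = 0.00104). When the 4 cortex libraries were fitted alone with library number as a term, which leaves 1 residual degree of freedom, Alad was the single promoter of 24323 called (0.68 log2, adjusted p = 0.0382), and Hdhd3 had an adjusted p of 0.0617.

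The 2 windows do not overlap and lie 15709 bases apart, and the promoters on either side of them differed less. In levels scaled over 18 libraries, Bspry on one side had 22.0 and 17.3 CPM in fear against 17.4 and 18.6 CPM in control libraries, and Pole3, a DNA polymerase epsilon subunit, on the other had 63.2 and 59.2 against 56.8 and 51.7 CPM. On the same scale Hdhd3 had 59.2 and 39.5 CPM in cortex fear and 32.5 and 30.3 CPM in cortex control libraries. The cortex control libraries were the lowest at Hdhd3 of the 18: the CeA fear libraries had 61.0 and 45.5 CPM, the CeA control libraries 54.8 and 40.2 CPM, and bulk nuclei ranged over 38.4 to 67.2 CPM in cortex and 37.4 to 53.1 CPM in CeA. Alad had 60.0 and 44.6 CPM in cortex fear and 30.3 and 35.6 CPM in cortex control libraries, with 48.0 and 35.7 CPM in CeA fear, 44.0 and 23.5 CPM in CeA control, 49.3 to 67.6 CPM in cortex bulk and 37.9 to 44.1 CPM in CeA bulk nuclei.

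**Figure D2:**
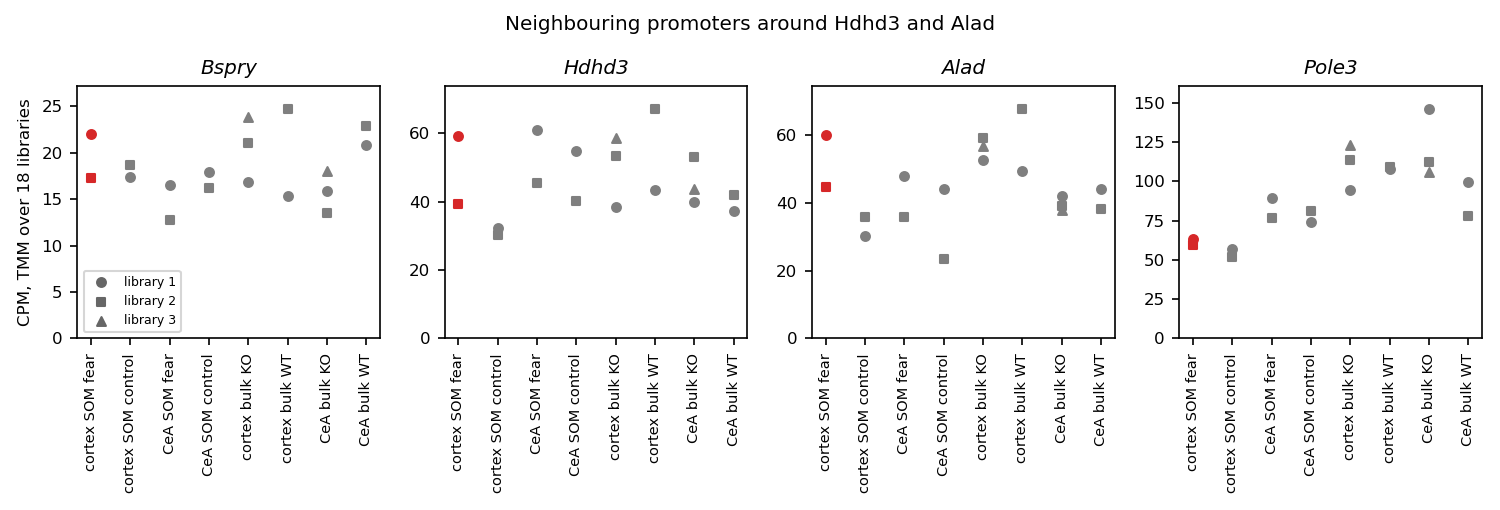
The level in CPM, scaled over all 18 libraries, is shown for 4 neighbouring promoters in each of the 8 groups of the series, 1 point per library, with cortex SOM+ fear in red. At Hdhd3 the 2 cortex SOM+ control libraries (32.5 and 30.3 CPM) lie below all other points, whereas at Bspry the cortex SOM+ fear and control points overlap.

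The other promoters named by rule, 12 in each direction with the smallest p-values among non-overlapping promoters of at least 5 CPM, did not pass the test (adjusted p = 1.00 each), so their values are a description. Of the 12 higher in fear libraries, Bmp7, a bone morphogenetic protein ligand, had 12.0 and 9.17 CPM in fear against 6.93 and 4.33 CPM in control libraries (0.91 ± 0.31 log2). Ecm2, an extracellular matrix protein, had 6.32 and 7.22 against 4.72 and 2.38 CPM (0.91 ± 0.31 log2). Col8a1, a chain of type VIII collagen, had 35.5 and 26.0 against 21.6 and 19.6 CPM (0.59 ± 0.22 log2). Sulf1, which removes sulfate groups from heparan sulfate outside the cell, had 17.5 and 9.63 against 8.33 and 9.30 CPM (0.64 ± 0.26 log2). At Sulf1 the gap rested on library 1, since fear 2 and control 2 differed by 0.05 log2.

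Car8, a carbonic anhydrase-related protein that binds the inositol trisphosphate receptor, had 10.8 and 6.07 CPM in fear against 4.52 and 4.76 CPM in control libraries (0.88 ± 0.31 log2). Fam107a, an actin-binding protein responsive to stress, had 10.8 and 6.30 against 5.42 and 4.22 CPM (0.84 ± 0.30 log2). Prex2, an exchange factor that activates the GTPase Rac, had 17.4 and 11.8 against 11.3 and 8.11 CPM (0.59 ± 0.24 log2). Palmd, of the paralemmin family, had 12.0 and 6.76 against 4.92 and 6.60 CPM (0.73 ± 0.28 log2), and its window shares 1314 bases with that of a neighbouring gene. The zinc finger genes Zfp758 and Zfp944 share 1948 of the 2000 bases of their windows and are 1 measurement, with 14.5 and 14.8 CPM at Zfp758 in fear against 10.2 and 7.90 CPM in control libraries (0.69 ± 0.26 log2).

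Of the 12 promoters lower in fear libraries, Pik3cd, the delta catalytic subunit of phosphoinositide 3-kinase known from leukocytes, had 7.70 and 7.79 CPM in fear against 12.0 and 14.8 CPM in control libraries (-0.79 ± 0.28 log2). Slc7a1, a cationic amino acid transporter, had 5.23 and 6.53 against 9.03 and 11.5 CPM (-0.81 ± 0.31 log2). Rab34, a small GTPase with a role in ciliogenesis, had 32.0 and 39.3 against 54.7 and 49.1 CPM (-0.55 ± 0.20 log2). Ihh, the hedgehog ligand of growing cartilage, had 7.48 and 6.53 against 12.2 and 11.3 CPM (-0.74 ± 0.29 log2). The naming rule takes only promoters with both fear libraries below both controls, so the direction within same-numbered pairs is fixed by it. In these 4 genes the pairs differed by -0.32 to -0.89 log2.

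Nphs1, the slit diaphragm protein nephrin of kidney podocytes, had 3.34 and 3.78 CPM in fear against 7.43 and 6.27 CPM in control libraries (-0.95 ± 0.37 log2). Pdzd7, a scaffold protein of hair cell stereocilia whose window shares 197 bases with that of Sfxn3, had 23.8 and 26.0 against 33.6 and 35.9 CPM (-0.48 ± 0.22 log2). Ackr1, an atypical chemokine receptor, had 11.5 and 8.82 against 15.4 and 15.7 CPM (-0.60 ± 0.26 log2). The protein kinase gene Hipk4 had 13.8 and 15.4 against 21.4 and 20.8 CPM (-0.53 ± 0.24 log2). The remaining 4, Fer1l4, H2afy3, C1qtnf5 and Tmem86b, were lower by -0.65, -0.80, -0.86 and -0.68 log2.

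**Figure D3:**
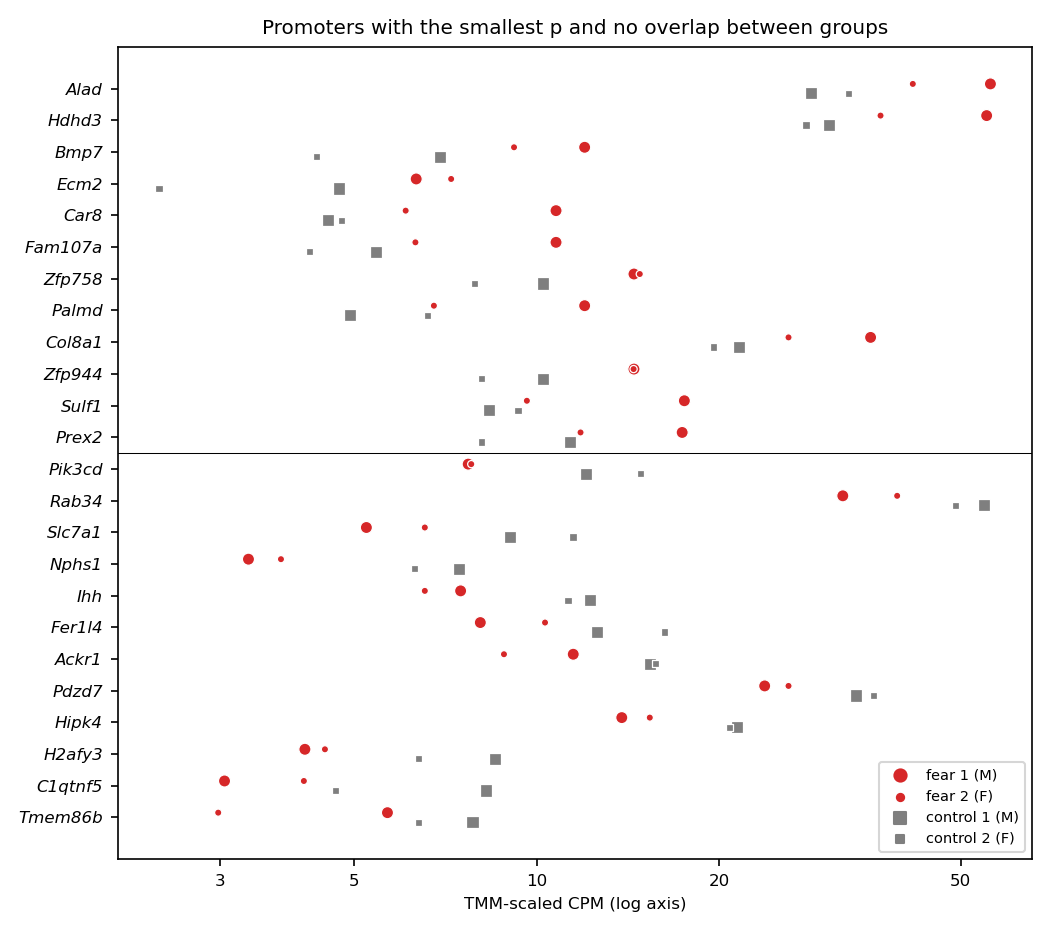
The level in TMM-scaled CPM on a log axis is shown for the 24 promoters with the smallest p-values among those whose fear (red circles) and control (grey squares) libraries did not overlap, higher in fear above the line and lower below it; large symbols are libraries numbered 1 and small symbols those numbered 2. Alad at 56.0 and 41.7 against 28.3 and 32.7 CPM is the top row, and fear 2 lies close to a control at Palmd, Sulf1 and Prex2.

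Immediate early gene promoters were open in both groups and did not pass the test. All 36 listed genes were tested, with 0 at an unadjusted p under 0.05, a median difference of -0.01 log2 beside -0.00 over all promoters, and a range of -0.30 (Fosb) to 0.21 (Dusp6). Their median level was 75.6 CPM, and the 95% interval of every one lay within 2-fold, the widest limits being -0.73 and 0.68 log2. Both fear libraries were above both controls at 3 of the 36 (8.33%) and below at 2 (5.56%). The shares over all promoters were 13.6% and 13%, and of promoters at 50 to 100 CPM, where the list's median lies, 21.3% did not overlap in either direction. The difference in shares was not tested.

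Fos, which encodes an AP-1 subunit and whose promoter holds 2 CRE cores, had 120 and 122 CPM in fear against 128 and 122 CPM in control libraries (-0.05 ± 0.21 log2, 95% interval -0.46 to 0.37). Npas4, an activity-dependent transcription factor of neurons, had 82.8 and 99.0 against 93.9 and 102 CPM (-0.11 ± 0.21 log2). The groups overlapped at both genes. Egr1, a zinc finger transcription factor, had 238 and 244 against 261 and 243 CPM, and Arc, which encodes a synaptic protein that regulates glutamate receptor traffic, had 84.7 and 88.8 against 104 and 90.1 CPM (-0.17 log2). Fosb, another AP-1 subunit, had 30.6 and 36.1 against 47.4 and 34.4 CPM, with pairs of opposite sign (-0.62 log2 between libraries 1 and 0.07 between libraries 2). Bdnf, the neurotrophin, had 36.6 and 28.8 against 40.4 and 19.1 CPM (0.14 ± 0.22 log2), where both libraries numbered 1 were above both numbered 2. Atf3, a stress-induced transcription factor, at 36.8 and 34.1 against 29.8 and 31.8 CPM, was one of the 3 genes with both fear libraries on top, beside Egr4 and the kinase gene Sik1.

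**Figure D4:**
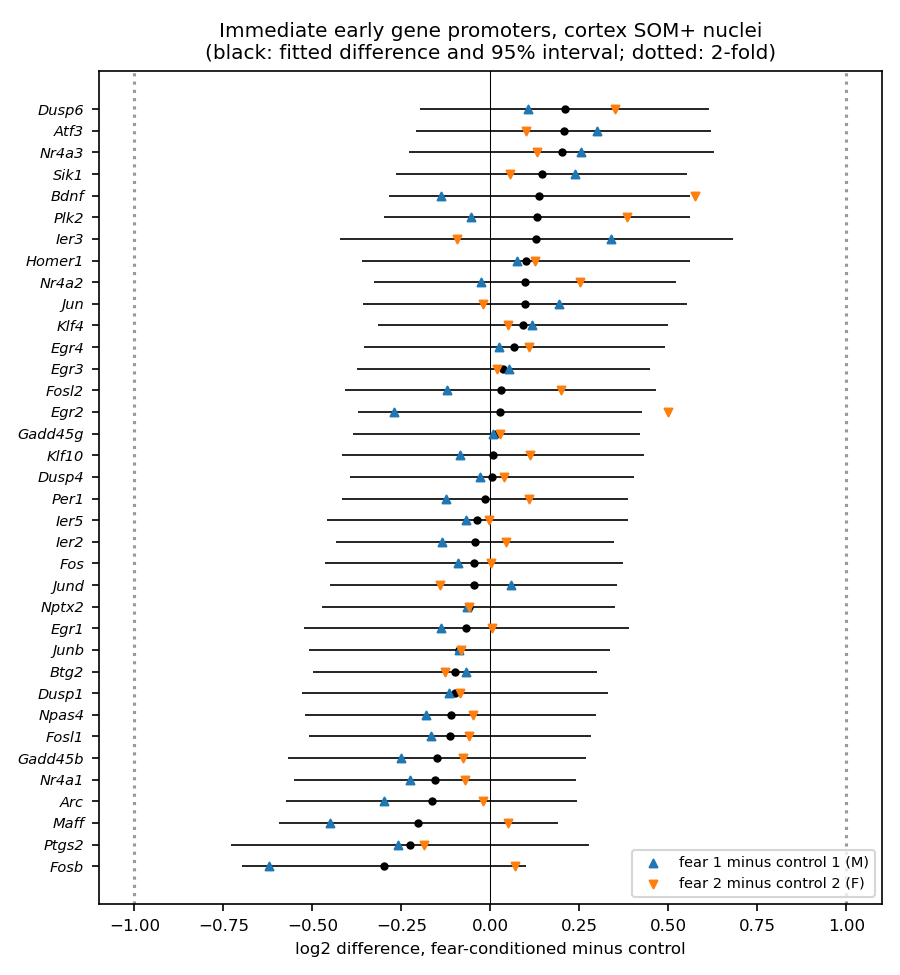
The log2 difference, fear-conditioned minus control, is shown for the promoters of 36 immediate early genes as the fitted value with its 95% interval (black), between the libraries numbered 1 (blue) and between those numbered 2 (orange), with dotted lines at 2-fold. All intervals lie within 2-fold and include 0.

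Late activity-induced genes, signalling genes and chromatin modifiers did not pass the test either, and some lay further from 0. Of 27 late activity-induced genes, 0 passed, with a median of 0.04 log2, a range of -0.24 to 0.57 and both fear libraries higher at 2 and lower at 0. Inhba, the activin A subunit, had 5.30 and 4.47 CPM in fear against 4.62 and 1.95 CPM in control libraries (0.57 ± 0.39 log2). Of 47 genes of CREB, calcium and MAPK signalling, 0 passed, with a median of -0.01 log2, a range of -0.26 to 0.44, and 5 higher and 9 lower in both fear libraries. The CREB coactivator Crebbp had 81.4 and 72.0 against 96.6 and 87.2 CPM (-0.26 ± 0.21 log2), and its paralog Ep300 147 and 137 against 177 and 159 CPM (-0.24 log2). Both acetyltransferases were thus lower in both fear libraries without passing the test. Among 63 chromatin modifiers the median was -0.04 log2, with 4 higher and 9 lower.

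Synaptic receptors, scaffolds and channels included more promoters that were lower than higher in both fear libraries, at shares not far above the background of 13%. Of 32 glutamate receptor genes 6 were lower (18.8%) and 2 higher, of 43 synaptic scaffold and plasticity genes 8 were lower (18.6%) and 2 higher, and of 45 voltage-gated ion channel genes 9 were lower (20%) and 3 higher. Their medians were -0.03, -0.04 and -0.02 log2, and 0 passed the test. Cacna1a, the pore of P/Q-type calcium channels, had 65.3 and 67.5 CPM in fear against 84.0 and 82.2 CPM in control libraries (-0.32 ± 0.20 log2). Hcn2, a pacemaker channel, had 50.4 and 46.5 against 66.4 and 53.1 CPM (-0.30 ± 0.20 log2), and Vamp2, a SNARE of synaptic vesicles, 26.2 and 24.8 against 30.2 and 33.0 CPM (-0.31 ± 0.21 log2). Grm8, a presynaptic metabotropic glutamate receptor, lay the other way at 26.3 and 26.4 against 23.3 and 17.0 CPM (0.38 ± 0.22 log2). The medians of these 3 lists had opposite signs in the pairs, for example -0.15 log2 between libraries 1 and 0.08 between libraries 2 for glutamate receptors. Lists of other functions leaned either way. Of 77 mitochondrial ribosomal protein genes 15 were lower (19.5%) and 6 higher, whereas of 40 monoamine and acetylcholine receptors 5 were lower and 8 higher.

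Of 25 genes of GABA receptors and GABA handling, 2 were higher and 2 lower, with a median of 0.01 log2. Gabra3, the alpha3 subunit of the GABA-A receptor, had 23.7 and 22.3 CPM in fear against 19.0 and 16.7 CPM in control libraries, and Gabrd, the delta subunit of extrasynaptic receptors, 30.0 and 32.4 against 37.5 and 38.1 CPM. Among neuromodulator genes, 8 of 40 monoamine and acetylcholine receptors were higher and 5 lower, with a median of 0.07 log2. The adrenergic receptors Adra1b, at 15.4 and 13.1 against 10.8 and 9.74 CPM (0.47 ± 0.27 log2), and Adra1a, at 24.1 and 19.9 against 28.5 and 27.5 CPM (-0.34 ± 0.22 log2), lay in opposite directions. Of 42 neuropeptides and their receptors, 4 were higher and 4 lower (median 0.09 log2), among them the mu opioid receptor Oprm1 with 16.6 and 16.4 against 11.1 and 13.2 CPM (0.44 ± 0.25 log2). None of these passed the test.

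The remaining signalling lists lay close to 0. Glucocorticoid and stress genes (28 tested) had a median of -0.02 log2, circadian clock genes (23) -0.01 log2, and neurotrophin and ErbB signalling genes (39) 0.01 log2. In the last list Erbb4, the neuregulin receptor of interneurons, had 25.4 and 25.3 CPM in fear against 22.3 and 22.8 CPM in control libraries (0.17 ± 0.23 log2). Genes of cellular housekeeping had medians of -0.01 (85 cytosolic ribosomal proteins), -0.02 (77 mitochondrial ribosomal proteins) and -0.04 log2 (83 OXPHOS subunits).

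None of the promoters that mark the sorted cells passed the test for fear conditioning. Of 31 somatostatin interneuron genes 3 were higher and 1 lower in both fear libraries, and the median was 0.02 log2. Sst had 13.5 and 17.0 CPM in fear against 15.2 and 16.9 CPM in control libraries (-0.08 ± 0.25 log2, 95% interval -0.56 to 0.40), Cort 79.0 and 93.4 against 86.9 and 88.6 CPM, and Gad1 83.7 and 87.9 against 82.9 and 85.2 CPM. Tacr1, the substance P receptor of a subset of these cells, was one of the 3 on top, with 13.7 and 11.2 against 10.8 and 7.25 CPM (0.47 ± 0.27 log2). Pvalb, the marker of the other large interneuron class, had 20.1 and 23.3 against 23.3 and 24.3 CPM. The lists of GABAergic neuron genes (19) and other interneuron genes (22) had medians of 0.03 and 0.07 log2.

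Markers of other cell types were present at low levels and differed little between treatments. The summed level of 22 microglia genes was 175 and 176 CPM in fear against 175 and 161 CPM in control libraries, and that of 29 vascular genes 360 and 364 against 360 and 334 CPM. Both fear libraries lay above both controls at 6 of 22 microglia genes (27.3%, 2 lower) and at 7 of 29 vascular genes (24.1%, 0 lower), against 13.6% of all promoters, with medians of 0.10 and 0.09 log2. The vascular sialomucin Emcn was at 1.82 and 3.55 against 1.30 and 0.87 CPM (1.26 ± 0.65 log2), and Myh11, smooth muscle myosin, at 11.9 and 11.1 against 8.93 and 8.22 CPM. The median levels of the microglia and vascular lists were 6.10 and 8.99 CPM, and all promoters at 5 to 20 CPM had a median difference of 0.01 log2, with 28.5% not overlapping in either direction. Fewer nuclei of a type and less accessible DNA per nucleus cannot be told apart in such data. Astrocyte genes (20), oligodendrocyte lineage genes (25) and glutamatergic neuron genes (30) had medians of 0.08, -0.06 and 0.06 log2, and the glutamatergic sum was 929 and 782 in fear against 941 and 770 CPM in control libraries.

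Clustered histone genes had the highest share of promoters with both fear libraries on top among the 29 lists. They encode the core and linker histones that are made during DNA replication. Of 64 tested, 24 were higher in both fear libraries (37.5%, against 13.6% of all promoters) and 5 lower, with a median of 0.15 log2, medians of 0.12 and 0.11 in the pairs, and 0 at an unadjusted p under 0.05. All 24 lay on chromosome 13, where 51 were tested, 47 had a positive difference and the median was 0.18 log2, and their summed level was 2547 and 2249 CPM in fear against 2255 and 2000 CPM in control libraries. Fear 2 and control 1 had nearly the same sum, so the group sums overlapped, as did the levels at the promoters other than these 24. The 10 tested on chromosome 3 had 0 higher and 4 lower, with a median of -0.05 log2. Hist1h2bm had 43.4 and 42.7 against 36.2 and 31.9 CPM (0.34 ± 0.20 log2, unadjusted p = 0.0969), and Hist1h2ae 91.8 and 74.1 against 72.0 and 64.3 CPM (0.29 ± 0.22 log2). Windows of 43 of the 64 overlap that of another member, the 64 windows merge into 40 regions, of which 16 hold a higher member, and near-identical histone copies can share reads, so these are not separate observations. In CeA SOM+ nuclei the median over the same 64 promoters was 0.01 log2.

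Hox genes, the developmental regulators of body position that are silent in forebrain, had the highest list median at 0.23 log2, at a median level of 3.89 CPM. Both fear libraries were above both controls at 11 of 39 (28.2%) and below at 1, but the medians of the pairs were -0.07 log2 between libraries 1 and 0.43 between libraries 2, and the summed level of control 2 (117 CPM) lay apart from control 1 (169 CPM) and from fear 1 and fear 2 (160 and 169 CPM). Olfactory receptor genes, also closed in brain, had a median of 0.10 log2 over 1084 promoters at a median of 1.23 CPM, with 243 higher (22.4%) and 116 lower (10.7%). The median levels of both lists lie between 1 and 5 CPM. All promoters at that level had a median difference of 0.08 log2, with 33.4% not overlapping in either direction. Control 2 was also the library with the highest ratio of open to closed promoters, 74.0, and the part of that ratio in these 2 lists was not tested. Zinc finger protein genes (353) and clustered protocadherins (58) had medians of 0.01 and 0.04 log2.

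**Figure D5:**
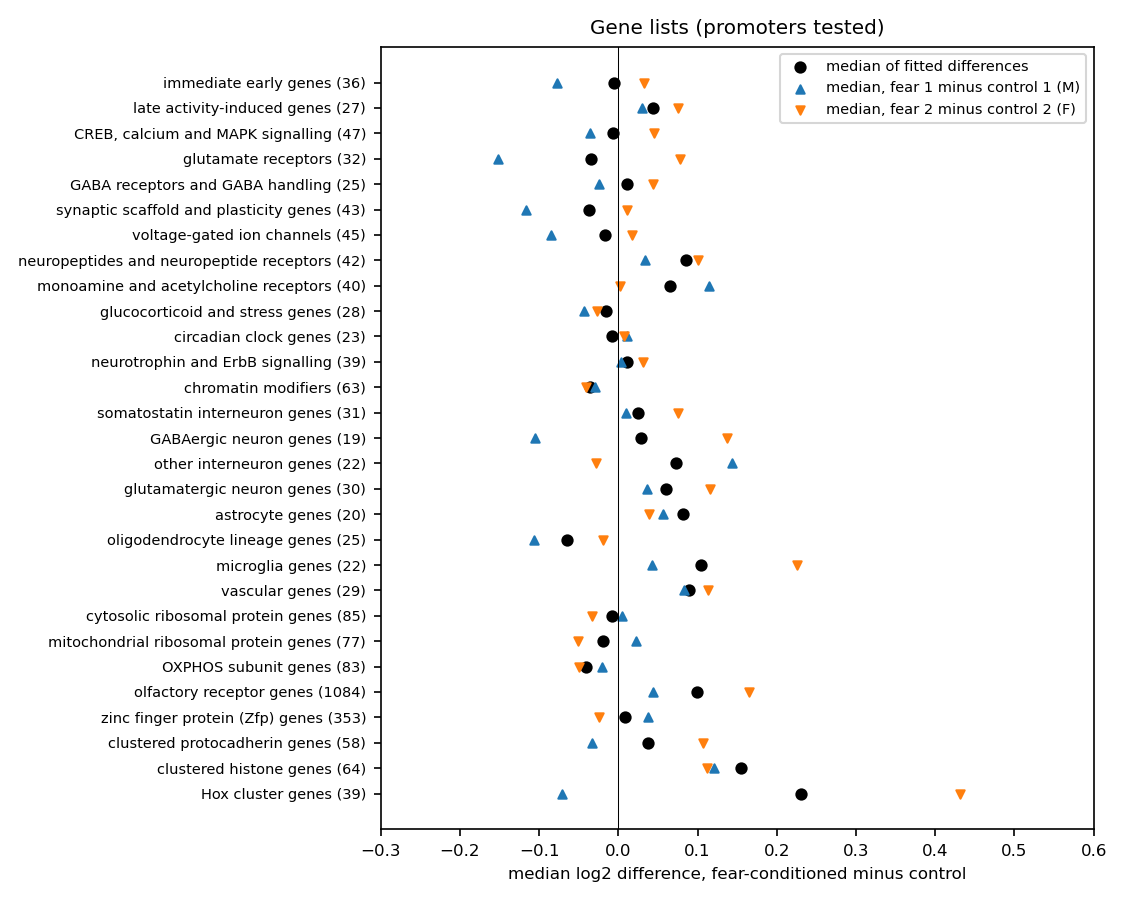
Each row is a gene list with the number of promoters tested, and the horizontal axis is the median log2 difference, fear-conditioned minus control: fitted (black), between the libraries numbered 1 (blue) and between those numbered 2 (orange). Of the 29 lists 26 have a fitted median within 0.1 of 0, and in 13 the pairs have medians of opposite sign.

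The response in cortex was set against that in the CeA, the amygdala output nucleus in which somatostatin cells are known to take part in conditioned fear, by testing the difference itself. Of 25157 promoters, 0 differed between cortex and CeA in their fear effect at an adjusted p under 0.05 (percent called, 0), with 371 at an unadjusted p under 0.05 by edgeR, 196 by DESeq2 and 501 by limma, each of which called 0. The CeA libraries were shallower, at 2648959 to 7727263 counts. Ihh was -0.74 log2 in cortex and 0.57 in CeA (unadjusted p of the difference = 0.0032), Car8 0.88 and -0.22 (0.0129), and Palmd 0.73 and -0.21 (0.0121), all with an adjusted p of 1.00. These 3 were named for their cortex values, which enter the difference, so it is not independent of the naming. Fos was -0.05 log2 in cortex and -0.32 in CeA, Npas4 -0.11 and -0.29, and Alad 0.69 and 0.32.

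Library number, which is also labelled sex, went with more called promoters than treatment did. In a fit of the 4 cortex libraries with both as terms, which leaves 1 residual degree of freedom and calls 1 promoter for treatment (Alad), 2122 of 24323 promoters (8.72%) had an adjusted p under 0.05 between number 2 (labelled female) and number 1 (labelled male). Of these 984 were higher (4.05%) and 1138 lower (4.68%) in number 2. When number was instead a term in the fit of the 8 SOM+ libraries, 188 were called, 28 higher and 160 lower.

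The sex chromosomes matched the labels. The Y-linked promoters of Uty, a histone demethylase homolog, Eif2s3y, a translation initiation factor, and Ddx3y, an RNA helicase, had 0 counts in both libraries labelled female, which allows up to 0.317 CPM in fear 2 and 0.295 CPM in control 2, against 415, 345 and 238 counts in fear 1 and 362, 274 and 179 counts in control 1. Xist, the RNA that coats the inactive X chromosome, had 11.8 and 10.5 CPM in fear 2 and control 2 against 5.52 and 3.92 CPM in fear 1 and control 1 (1.24 ± 0.26 log2, adjusted p = 0.000506). X-linked genes known to escape inactivation rose with it: Kdm5c by 0.68, Ddx3x by 0.65, Kdm6a by 0.56 and Eif2s3x by 0.47 log2. Eif2s3x did not pass in the 8-library fit. Of 861 X-linked promoters 44 were called (5.11%), and of 23458 autosomal promoters 2074 (8.84%), so most calls were autosomal.

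Autosomal promoters with the smallest p-values were separated by number in both treatments. They were chosen by that p-value, so a similar difference by number in both treatments is favoured by the choice. Nrip1, a nuclear receptor corepressor, had 35.3 and 31.2 CPM in fear 2 and control 2 against 62.1 and 64.1 CPM in fear 1 and control 1 (-0.93 ± 0.12 log2, adjusted p = 3.56e-08). Crim1, a transmembrane protein that binds bone morphogenetic proteins, had 16.7 and 15.9 against 38.0 and 32.9 CPM (-1.12 ± 0.16 log2), and Ell, a transcription elongation factor, had 325 and 338 against 242 and 258 CPM (0.40 ± 0.06 log2). At all 3 the treatments lay close together within a number.

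Immediate early genes were among the promoters that differed by number. Of the 36, 10 were called, 2 higher and 8 lower in number 2, against 4.05% and 4.68% of all promoters. Other lists held such calls as well. There were 8 higher and 8 lower of 63 chromatin modifiers, 1 and 9 of 45 voltage-gated ion channel genes, and 0 and 5 of 23 circadian clock genes. Of 85 cytosolic ribosomal protein genes, at a median of 73.6 CPM against 75.6 CPM for immediate early genes, 6 were higher and 4 lower. In the 8-library fit, which called 0.747% of all promoters, 1 of the 36 immediate early genes was called, Egr2. Gadd45b, which takes part in activity-induced DNA demethylation, had 147 and 155 CPM in fear 2 and control 2 against 94.5 and 113 CPM in fear 1 and control 1 (0.54 ± 0.08 log2), whereas Egr2 had 33.2 and 23.4 against 41.1 and 49.6 CPM (-0.69 log2, adjusted p = 0.000400), and Bdnf was lower by -0.70 log2. Gadd45b and Ell were not called in the 8-library fit. Glutamatergic neuron markers moved with number as well: their summed level was 782 and 770 CPM in fear 2 and control 2 against 929 and 941 CPM in fear 1 and control 1, and 9 of 30 were called lower in number 2, against 4.68% of all promoters, and 0 higher. The 8-library fit called 2 of the 30, both lower, against 0.636% of all promoters. None of the 22 microglia genes was called higher and 1 lower, close to the share over all promoters, and of 19 GABAergic neuron genes 0 were called in either direction. The part of these markers in the differences by number was not tested.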

How the data were processed

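The deposited values were raw counts of reads in promoter windows of mouse build mm9, each reaching 1 kb up and down from a transcription start. Each library has its own column and the authors had not normalized it: values were whole numbers and column totals differed. The submitters' processing notes name Trimmomatic 0.32, bcl2fastq 2.16.0.10, Picard 1.88, Bowtie2 and MACS2. How reads were counted, and how the Tn5 offset, duplicates and strand were treated, is not given in the sources used here. Totals are promoter counts and not sequencing depth. From 26728 entries, 663 repeats of a window were dropped. The other 26065 windows were used, 1435 of them wider than 2000 bases, up to 6222. Neighbouring windows can overlap and share reads, and promoters whose windows overlap cannot be told apart there.

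Counts of the 8 SOM+ libraries were fitted by group (4 residual degrees of freedom) using edgeR's quasi-likelihood test after TMM scaling (edgeR 4.0.16 under R 4.3.3). The filter filterByExpr (minimum count 10, minimum total 15) left 25157 promoters and removed 908, and 477 windows had 0 counts in all 4 cortex SOM+ libraries. Adjustment followed Benjamini and Hochberg over all promoters, and a promoter is called at an adjusted p under 0.05. Differences are log2 fold changes, fear-conditioned minus control, and levels are TMM-scaled CPM. Differences between same-numbered libraries used log2 of CPM plus 0.5. Library number was tested in the 4 cortex SOM+ libraries with treatment as a term.

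Named promoters were, per direction, up to 12 with the smallest p whose levels did not overlap between groups, with a mean of at least 5 CPM where they were not called. Predicted genes, small RNA genes and olfactory, vomeronasal and taste receptors were left out, 8 genes were always named, and 2 to 4 members of each list were eligible. Some genes that the rule names are not reported here. A promoter named outside this rule (the markers of the sort, Bspry, Pole3, Egr1, Arc, Egr4, Sik1 and the promoters that differed by number) was chosen after its values were seen. There were 31 lists, where the window with the highest mean count stood for a gene, and a list is described by counts and its median with no test. The members and lists were chosen with earlier results of these data known. Of 24361 gene symbols, 24260 (99.6%) were in the RefSeq gene table. Alternatives were DESeq2 1.42.0, RLE and total count scaling, limma 3.58.1 after cyclic loess, no count filter, repeated windows kept, other sets of libraries, library number as a block, and leaving out each replicate. The fits were tested on simulated data.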

Additional observations from a re-analysis of the deposited data

How the results depend on the processing

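The count of promoters called for fear conditioning stayed at 0 under DESeq2, RLE and total count scaling, cyclic loess with limma, no count filter, repeated windows kept, all 18 libraries, the 4 cortex libraries alone and without X and Y, and 127 to 1532 promoters had an unadjusted p under 0.05 over all alternatives. The labels do not say that a library number marks a shared mouse or batch. Deviations of same-numbered libraries correlated at 0.188 between cortex fear and control, and at -0.0213 to 0.130 for the other pairs of SOM+ groups, and with 2 numbers these libraries share only a number. With library number as a replicate block over 8 libraries 0 promoters were called for fear (359 at an unadjusted p under 0.05) and 0 for the difference between regions. With the block over the 4 cortex libraries 1 was called, Alad, at 0.68 log2. Leaving out each replicate in turn gave 0 to 3 calls for fear, 0 to 3 for the difference between regions and 0 to 3 in the gene lists. The 3 calls were in each case the Y-linked Eif2s3y, Uty and Ddx3y, and came when cortex control 1, cortex fear 1 or, for the regions, CeA control 1 was left out, all labelled male: without cortex control 1 they were higher in fear and without cortex fear 1 lower. Promoter enrichment differed by -4.52 with sums in place of medians, and by -15.9 to 2.22 when one replicate was left out, with the sign turned without control 2. Promoters called by number were 2127 with RLE scaling, 2177 with total scaling and 2161 with no filter, but 188 when number was a term over 8 libraries, an alternative chosen after seeing the data. In that fit over 8 libraries Eif2s3x, Gadd45b and Ell had adjusted p-values of 0.126, 0.248 and 0.629. In the 4 cortex libraries, leaving out a replicate leaves no residual degree of freedom and so no test of number.

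Of 72 genes named in the fear comparison and followed over the alternatives, 9 turned sign when one replicate was left out, none of them called. Their ranges in log2 were -0.024 to 0.064 for Gad1, -0.30 to 0.75 for Bdnf, -0.17 to 0.089 for Cort, -0.26 to 0.083 for Sst, -0.26 to 0.013 for Npas4, -0.013 to 0.50 for Arntl2, -0.15 to 0.52 for Tgfa, -0.11 to 0.78 for Ctgf and -0.049 to 1.20 for Ermn. List medians moved by more than the spread between pairs in 96 of 463 values. The cause was not tested.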
